A study of Mus musculus with 12 samples.

Results

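The aryl hydrocarbon receptor axis and the Ugt1a gene cluster were followed in 8 genes: Ahr, Ahrr, Tiparp, Nqo1, Ugt1a5, Ugt1a9, Ugt1a6a and Ugt1a7c. They were chosen by symbol, and the choice used measured values, since Ugt1a5 and Ugt1a9 had stood among the largest decreases in ATRA cells after co-culture. All 8 were present in both count tables, which held 13948 and 35588 rows, and all 8 passed the filter on low counts in both. None was absent, and 9 rows in each table carried a Ugt1a symbol.

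The libraries came from mouse OT-I CD8+ T cells, cytotoxic lymphocytes whose transgenic receptor recognises an ovalbumin peptide. In the ATRA groups, all-trans retinoic acid (5 ng/mL), the vitamin A metabolite that activates nuclear retinoic acid receptors, was present while the cells were expanded through CD3e, CD28 and IL-2. The CTRL groups received DMSO instead, and after a further 5 days all cells were kept for 72 h at 1% oxygen with GL261, a mouse glioma line made to carry chicken ovalbumin, with no additive. The 4 groups, each of 3 libraries, were ATRA and CTRL cells sorted at that point (co-culture) and ATRA and CTRL cells sorted after 24 h of renewed CD3e stimulation (restimulation). The sort took living CD45.2+ cells. Every group therefore shares the transgenic receptor, the glioma co-culture and the low oxygen.

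The aryl hydrocarbon receptor, encoded by Ahr, is a ligand-activated transcription factor that waits in the cytosol with HSP90 and p23. Bound to a ligand such as a dioxin or a tryptophan metabolite, it enters the nucleus, pairs with ARNT and binds DNA at a short core motif upstream of genes such as Cyp1a1, Ahrr, Tiparp and Nqo1. AHRR and TIPARP then act back on the receptor as repressors. In T cells the receptor is known for its part in IL-22 production and in the differentiation of type 17 and resident memory cells. Ugt1a enzymes attach glucuronic acid to bilirubin, steroids, drugs and other lipophilic molecules, mostly in liver and gut.

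The Ugt1a rows are not independent genes. In the GENCODE M21 annotation of build GRCm38, the main transcript of each of the 9 has 1 leading exon of its own on chromosome 1, spliced to 4 exons shared by all. The shared exons made up 57.9% to 59.9% of the transcript in 8 rows and 71.7% in Ugt1a7c, whose last exon is annotated as longer, and their coding stretch was 1 identical sequence of 735 bases in all 9. The joins are shown because most of the bases to their right are common to all 9 rows, and a read that lies in those can fit any of them. Each line runs 5′ to 3′ and holds the last 30 bases of the own exon in lower case and the first 30 bases of the shared exons in capitals.
Ugt1a5: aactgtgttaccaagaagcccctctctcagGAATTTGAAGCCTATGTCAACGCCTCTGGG
Ugt1a9: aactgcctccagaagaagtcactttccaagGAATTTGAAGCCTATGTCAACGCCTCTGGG
Ugt1a6a: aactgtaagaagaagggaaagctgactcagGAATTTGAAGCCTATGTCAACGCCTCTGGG
Ugt1a7c: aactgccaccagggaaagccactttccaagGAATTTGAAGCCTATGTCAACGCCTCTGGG
Ugt1a10: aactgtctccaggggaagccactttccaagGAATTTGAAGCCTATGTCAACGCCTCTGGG

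Own exons also resembled each other. The coding part of the own exon was 97.0% identical between Ugt1a6a and Ugt1a6b, 91.2% between Ugt1a9 and Ugt1a10, 84.1% between Ugt1a7c and Ugt1a8 and 81.6% between Ugt1a2 and Ugt1a5. Between Ugt1a5 and Ugt1a9 it was 56.7%. Counts of single rows are uncertain for this reason, and the sum over the 9 rows is given beside them. How reads that fit several rows were counted is not given in the sources used here, so the sum is free of their division only if each was counted once.

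Promoter windows from 250 bases before to 50 bases after the start (RefSeq, GRCm38.p6) were at hand for 7 of the 8 genes, Ahr being the exception. The core motif bound by the receptor, GCGTG, or its reverse complement CACGC, was found in the windows of Ahrr, Tiparp and Ugt1a5, which is 3 of 7, and in 32.4% of 32851 promoters. The retinoic acid half-site AGGTCA, also sought as its reverse complement TGACCT, was found in the windows of Ugt1a9 and Ugt1a7c and in 16.3% of all promoters. A direct repeat of that half-site with 5 bases between the copies and the antioxidant motif TGACNNNGC were found in none of the 7, against 0.00913% and 12.4% of all promoters. These are matches of letters in a window, not measured binding. The 250 bases upstream are printed for the 3 genes with a core match, in capitals, and for Ugt1a9, which had none.
Ahrr, chr13:74292332-74292581, minus strand: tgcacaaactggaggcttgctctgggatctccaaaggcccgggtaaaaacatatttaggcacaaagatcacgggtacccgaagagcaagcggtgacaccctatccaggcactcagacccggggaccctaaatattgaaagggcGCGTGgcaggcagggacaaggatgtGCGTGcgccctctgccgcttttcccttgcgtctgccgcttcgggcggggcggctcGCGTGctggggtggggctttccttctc
Tiparp, chr3:65528197-65528446, plus strand: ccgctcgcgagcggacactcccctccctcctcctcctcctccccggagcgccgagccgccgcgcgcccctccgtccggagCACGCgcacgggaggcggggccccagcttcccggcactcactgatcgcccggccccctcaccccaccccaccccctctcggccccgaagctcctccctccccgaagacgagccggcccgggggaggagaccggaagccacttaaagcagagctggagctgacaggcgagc
Ugt1a5, chr1:88165762-88166011, plus strand: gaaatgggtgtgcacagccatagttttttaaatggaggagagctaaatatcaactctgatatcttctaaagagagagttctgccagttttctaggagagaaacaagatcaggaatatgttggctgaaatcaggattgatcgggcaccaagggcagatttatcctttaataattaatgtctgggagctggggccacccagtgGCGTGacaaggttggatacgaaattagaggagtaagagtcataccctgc
Ugt1a9, chr1:88070529-88070778, plus strand: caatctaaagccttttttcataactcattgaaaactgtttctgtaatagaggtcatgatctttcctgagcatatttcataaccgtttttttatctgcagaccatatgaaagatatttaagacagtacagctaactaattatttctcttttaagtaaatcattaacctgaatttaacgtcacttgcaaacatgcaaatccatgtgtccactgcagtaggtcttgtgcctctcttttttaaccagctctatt

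Libraries held 23558244 to 26111497 counts after co-culture and 16286775 to 20114121 after restimulation. Levels are library-scaled counts (CPM) with TMM factors computed separately for each state, and comparing levels across the states is only a description, because state, labelled batch set and table cannot be told apart. CTRL replicate 1 and ATRA replicate 3 of the co-culture stood apart from their groups, with correlations of log CPM of 0.986 and 0.988 for the CTRL library and 0.958 and 0.971 for the ATRA library against their partners. The log2 fold changes of the 8 genes and of the Ugt1a sum after co-culture are also given without both libraries. Of the 6 markers of CD8 T cells, 5 were in the co-culture table (Trac was not) and all 6 in the restimulation table. Their sums stood at 1316 to 1335 CPM in ATRA and 1015 to 1306 CPM in CTRL co-culture libraries. Every ATRA library was thus above every CTRL library there. After restimulation the sums overlapped, at 930 to 970 CPM in ATRA and 952 to 1165 CPM in CTRL libraries. In bulk samples, fewer cells of a type and less RNA per cell cannot be told apart.

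After co-culture, 33.6% of 12111 tested genes were called in edgeR's quasi-likelihood test at a Benjamini-Hochberg adjusted p under 0.05, with 18.1% above and 15.5% below CTRL, and ATRA and CTRL libraries were fully apart for 57.0%. After restimulation 62.6% of 12783 were called, with 31.8% above and 30.8% below CTRL, and 68.8% were fully apart. The co-culture comparison led to the choice of Ugt1a5 and Ugt1a9, so co-culture differences of all 8 genes are given with no test. Restimulation values come from other libraries and are tested over all genes. What led to the choice of the other genes is not recorded, so their restimulation tests may not be independent of it.

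The receptor gene Ahr was low in all groups. Ahr stood at 4.80, 4.92 and 4.40 CPM in ATRA cells after co-culture, against 9.02, 5.35 and 5.95 CPM in CTRL cells. All 3 ATRA libraries lay below the CTRL libraries, but replicate 2 of each differed by little and CTRL replicate 1 was the highest. The log2 fold change was -0.52 (SE 0.24), -0.26 without CTRL replicate 1 and -0.21 without both CTRL replicate 1 and ATRA replicate 3. After restimulation Ahr stood at 8.96, 9.58 and 5.72 CPM in ATRA cells and at 7.63, 7.03 and 8.12 CPM in CTRL cells. These groups overlapped, with the ATRA libraries on both sides of CTRL, and the change was 0.09 (SE 0.22, adjusted p = 0.747). From low to high, the 4 group means were 4.71 ± 0.271 CPM in ATRA co-culture, 6.77 ± 1.97 in CTRL co-culture, 7.59 ± 0.545 in restimulated CTRL and 8.09 ± 2.07 in restimulated ATRA cells (SD, n = 3). The 3 highest of these lay within each other's spread.

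Ahrr, the repressor that competes with the receptor for ARNT, divided the ATRA co-culture libraries. It stood at 3.12, 2.27 and 0.302 CPM in ATRA cells, against 0.586, 0.935 and 1.47 CPM in CTRL cells. ATRA replicates 1 and 2 were above every CTRL library and ATRA replicate 3 was below every CTRL library, so the groups overlapped (log2 fold change 0.93, SE 0.77). The change was 1.43 (SE 0.42) without ATRA replicate 3, 0.37 (SE 0.83) without ATRA replicate 1 and 1.17 (SE 0.34) without CTRL replicate 1 and ATRA replicate 3. After restimulation Ahrr stood at 4.76, 4.81 and 5.42 CPM in ATRA cells and at 0.561, 0.489 and 1.24 CPM in CTRL cells. Each ATRA library was above each CTRL library, and Ahrr rose by 2.69 on the log2 scale (SE 0.37, adjusted p = 5.17e-05), which is 6.45-fold. Within the labelled batches the differences of log2(CPM + 1) were 1.88, 1.97 and 1.52 after restimulation and 1.38, 0.76 and -0.92 after co-culture. Restimulated ATRA cells had the highest of the 4 group means, 5.00 ± 0.368 CPM, and the other 3 groups, at 1.90 ± 1.45 in ATRA co-culture, 0.997 ± 0.445 in CTRL co-culture and 0.762 ± 0.412 in restimulated CTRL cells, lay within each other's spread. In the authors' TPM values, which are scaled to transcript length, Ahrr spread more widely, at 1.92, 5.27 and 8.73 TPM in ATRA cells and 0.129, 0.148 and 0.538 TPM in CTRL cells, and the groups did not overlap there either.

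Tiparp, which encodes a mono-ADP-ribosyltransferase that represses the receptor, was higher in ATRA cells in both states. Tiparp stood at 53.6, 71.9 and 148 CPM in ATRA cells after co-culture and at 26.8, 24.1 and 25.4 CPM in CTRL cells. Every ATRA library was above every CTRL library, and ATRA replicate 3 was the highest of all 12. The log2 fold change was 1.84 (SE 0.37), 1.30 without ATRA replicate 3 and 1.35 without CTRL replicate 1 as well. After restimulation Tiparp stood at 66.2, 73.8 and 74.1 CPM in ATRA cells and at 27.4, 24.8 and 27.7 CPM in CTRL cells. The groups were again apart, with little spread in either, and Tiparp rose by 1.42 on the log2 scale (SE 0.10, adjusted p = 1.2e-07), which is 2.68-fold. The within-batch differences of log2(CPM + 1) were 0.97, 1.54 and 2.49 after co-culture and 1.24, 1.54 and 1.39 after restimulation. The group means were 91.1 ± 50.0 CPM in ATRA co-culture and 71.4 ± 4.47 in restimulated ATRA cells, within each other's spread, and 26.7 ± 1.61 CPM in restimulated CTRL and 25.5 ± 1.36 in CTRL co-culture, also within each other's spread. Per length, Tiparp stood at 46.2 ± 5.86 TPM in ATRA and 20.0 ± 2.14 TPM in CTRL restimulated cells (SD, n = 3). It was the most abundant of the 8 in ATRA cells, while in CTRL cells it overlapped Ugt1a7c.

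Nqo1, which encodes a quinone reductase controlled by both the aryl hydrocarbon receptor and NRF2, was low but detected in every library, at 19 to 59 counts. It stood at 0.858, 0.967 and 0.820 CPM in ATRA cells after co-culture, against 1.02, 2.21 and 1.03 CPM in CTRL cells. The ATRA libraries lay just below the CTRL libraries, of which replicate 2 was well above the rest. The log2 fold change was -0.68 (SE 0.41), -0.22 without CTRL replicate 2 and -0.82 without CTRL replicate 1 and ATRA replicate 3. After restimulation Nqo1 stood at 1.90, 2.04 and 1.61 CPM in ATRA cells and at 2.69, 2.14 and 2.53 CPM in CTRL cells, and the groups did not overlap. The change of -0.41 (SE 0.32) did not pass the test (adjusted p = 0.287), on totals of 105 counts in ATRA and 130 counts in CTRL cells. From low to high, the group means were 0.882 ± 0.0766 CPM in ATRA co-culture, 1.42 ± 0.684 in CTRL co-culture, 1.85 ± 0.222 in restimulated ATRA and 2.45 ± 0.285 in restimulated CTRL cells, and only the last pair stood further apart than the sum of their SDs.

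**Figure D1:**
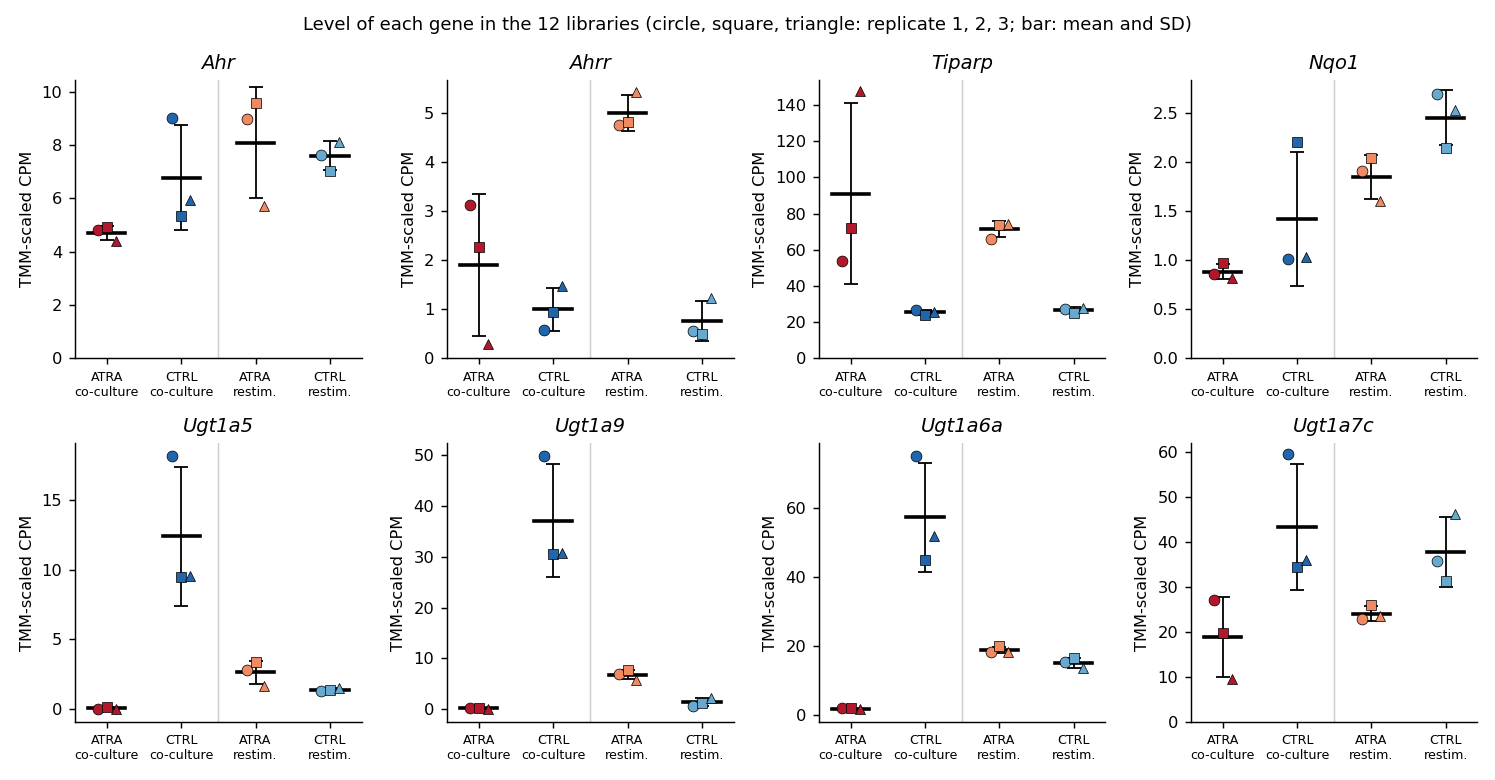
TMM-scaled CPM (vertical axes, from 0) of the 8 genes in ATRA and CTRL cells after co-culture and after restimulation, with 1 point per library, the mean as a bar and the SD over 3 libraries as whiskers. Tiparp was apart in both states, Ahrr only after restimulation, and Ugt1a5, Ugt1a9 and Ugt1a6a were near 0 to 2.07 CPM in ATRA co-culture cells, against 9.50 to 75.0 CPM in CTRL co-culture cells.

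The Ugt1a rows had their largest differences after co-culture. Summed over the 9 rows, they stood at 31.8, 25.2 and 11.8 CPM in ATRA cells, against 441, 289 and 298 CPM in CTRL cells. Every ATRA library was far below every CTRL library, and CTRL replicate 1 was the highest. The log2 fold change of the sum was -3.90 (SE 0.40), and -3.36 (SE 0.10) without CTRL replicate 1 and ATRA replicate 3, with within-batch differences of -3.75, -3.47 and -4.55. All 9 single rows lay lower in each ATRA library than in any CTRL library, where 57.0% of all tested genes were fully apart.

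After restimulation the sum stood at 86.5, 95.8 and 84.6 CPM in ATRA cells and at 72.2, 67.7 and 78.8 CPM in CTRL cells. The groups did not overlap but lay close, and the sum rose by 0.29 (SE 0.09, adjusted p = 0.0114). That call ended without ATRA replicate 2 (adjusted p = 0.0743). From low to high, the group means of the sum were 22.9 ± 10.2 CPM in ATRA co-culture, 72.9 ± 5.57 in restimulated CTRL, 89.0 ± 6.01 in restimulated ATRA and 343 ± 84.8 CPM in CTRL co-culture cells (SD, n = 3). The sign of the ATRA difference was thus negative after co-culture and positive after restimulation. No test of that difference between states is given, because co-culture values led to the choice of Ugt1a5 and Ugt1a9.

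Ugt1a5 was almost undetected in ATRA co-culture cells. It had 0, 0.126 and 0 CPM there, against 18.2, 9.50 and 9.55 CPM in CTRL cells, which is 3 counts in all against 980. Only ATRA replicate 2 held any. The ratio of CTRL to ATRA counts, corrected for depth, was 298, with a 95% interval of 102 to 1448 that covers counting error only. The fitted log2 fold change was -8.07, -11.32 without ATRA replicate 2 and -7.18 without CTRL replicate 1 and ATRA replicate 3. After restimulation Ugt1a5 stood at 2.80, 3.35 and 1.66 CPM in ATRA cells and at 1.23, 1.34 and 1.51 CPM in CTRL cells. The groups did not overlap, ATRA replicate 3 lay close to CTRL, and Ugt1a5 rose by 0.93 (SE 0.37, adjusted p = 0.0455). That call ended in 10 of 13 alternatives, over which adjusted p ran between 0.0212 and 0.195, and was 0.0934 with the labelled batch as a replicate block. Among them it ended without CTRL replicate 1 (adjusted p = 0.0973), CTRL replicate 2 (0.099), CTRL replicate 3 (0.0577), ATRA replicate 1 (0.116) or ATRA replicate 2 (0.195). From low to high, its group means were 0.0421 ± 0.0729 CPM in ATRA co-culture, 1.36 ± 0.136 in restimulated CTRL, 2.60 ± 0.863 in restimulated ATRA and 12.4 ± 5.01 in CTRL co-culture cells, each further from the next than the sum of their SDs.

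Ugt1a9 had the largest estimated restimulation change of the Ugt1a rows, with Ugt1a8 within its error. After co-culture it had 0.273, 0.126 and 0 CPM in ATRA cells, against 49.9, 30.6 and 30.8 CPM in CTRL cells, which is 10 counts in all against 2935. All ATRA libraries were close to 0 (log2 fold change -8.03, SE 0.58, -9.08 without ATRA replicate 1 and -7.21 without CTRL replicate 1 and ATRA replicate 3). After restimulation it stood at 6.94, 7.64 and 5.77 CPM in ATRA cells and at 0.674, 1.28 and 2.26 CPM in CTRL cells. The groups were apart, and Ugt1a9 rose by 2.26 (SE 0.37, adjusted p = 0.000181), which is 4.79-fold. The group means, from low to high, were 0.133 ± 0.137 CPM in ATRA co-culture, 1.40 ± 0.799 in restimulated CTRL, 6.79 ± 0.943 in restimulated ATRA and 37.1 ± 11.1 in CTRL co-culture cells, each again further from the next than the sum of their SDs.

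Ugt1a6a, whose human counterpart UGT1A6 conjugates small phenols, had 2.07, 1.93 and 1.77 CPM in ATRA cells after co-culture, against 75.0, 44.7 and 51.8 CPM in CTRL cells. The ATRA libraries differed little among themselves and were all far below CTRL (log2 fold change -4.89, SE 0.25, and -4.58 without CTRL replicate 1 and ATRA replicate 3). After restimulation Ugt1a6a stood at 18.4, 20.0 and 18.3 CPM in ATRA cells and at 15.4, 16.5 and 13.5 CPM in CTRL cells. The groups did not overlap, and the change of 0.32 (SE 0.13) did not pass the test (adjusted p = 0.0501). Without CTRL replicate 2 it did (0.38, adjusted p = 0.0438). Its group means, from low to high, were 1.92 ± 0.149 CPM in ATRA co-culture, 15.1 ± 1.53 in restimulated CTRL, 18.9 ± 0.951 in restimulated ATRA and 57.2 ± 15.8 in CTRL co-culture cells, likewise all apart by more than the sum of neighbouring SDs.

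Ugt1a7c kept the highest level of the Ugt1a rows in ATRA cells after co-culture. It had 27.1, 19.8 and 9.41 CPM in ATRA cells, against 59.5, 34.4 and 36.0 CPM in CTRL cells. The groups did not overlap, ATRA replicate 3 was the lowest, and the log2 fold change was -1.20 (SE 0.40). It was -0.58 (SE 0.13) without CTRL replicate 1 and ATRA replicate 3. After restimulation Ugt1a7c stood at 22.8, 26.0 and 23.4 CPM in ATRA cells and at 35.8, 31.3 and 46.3 CPM in CTRL cells. Every ATRA library was below every CTRL library, and Ugt1a7c fell by 0.65 on the log2 scale (SE 0.14, adjusted p = 0.00157). Where 68.8% of all tested genes did not overlap after restimulation, 6 of the 9 rows were higher in ATRA cells without overlap and 2 overlapped. Ugt1a7c was the only 1 that was lower without overlap. The order of its group means, from low to high, was 18.8 ± 8.89 CPM in ATRA co-culture, 24.1 ± 1.65 in restimulated ATRA, 37.8 ± 7.70 in restimulated CTRL and 43.3 ± 14.0 in CTRL co-culture cells, and only the second and the third stood further apart than the sum of their SDs.

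The other 5 Ugt1a rows followed a like course. Ugt1a10, the most abundant row of CTRL co-culture cells, had 0.858, 1.81 and 0.475 CPM in ATRA cells after co-culture, against 159, 117 and 116 CPM in CTRL cells (log2 fold change -6.96, SE 0.45). Ugt1a6b and Ugt1a8 had log2 fold changes of -5.19 and -7.90 there, Ugt1a8 on 4 counts in ATRA against 1132 in CTRL cells. Ugt1a2 had 0 counts in the ATRA libraries, against 597 in the CTRL libraries, and was at least 60.8-fold lower, with the floor set at 3 counts per library. Ugt1a1, the bilirubin-conjugating enzyme, had 1 count in ATRA against 413 in CTRL cells, a ratio of CTRL to ATRA of 377 with a 95% interval of 67.3 to 14921. After restimulation Ugt1a10 rose by 0.78 (adjusted p = 0.00522), Ugt1a6b by 1.40 (adjusted p = 6.19e-05) and Ugt1a8 by 2.03 (adjusted p = 0.003). Ugt1a1 (0.38, adjusted p = 0.631) and Ugt1a2 (0.67, adjusted p = 0.196) did not pass the test.

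**Figure D2:**
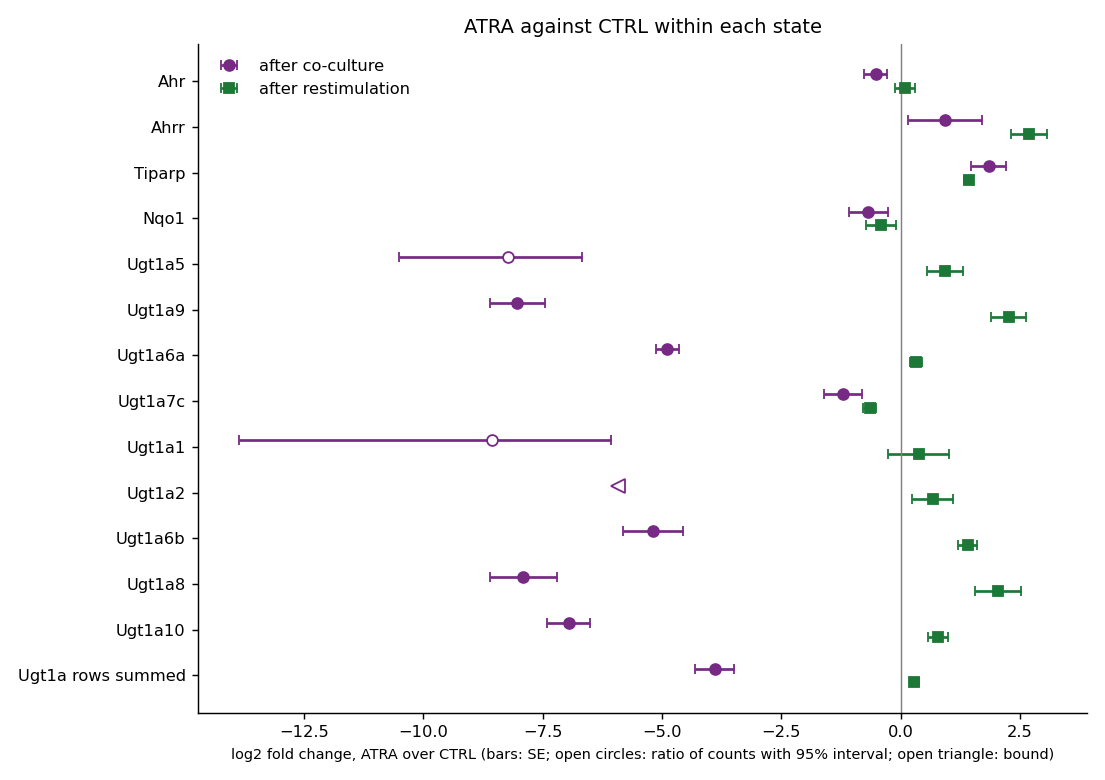
Log2 fold change of ATRA over CTRL (horizontal axis) after co-culture (circles) and after restimulation (squares) for the 8 genes, the other 5 Ugt1a rows and their sum, with SE as whiskers. Open circles are ratios of counts with a 95% interval, for rows with 1 or 3 counts in ATRA cells, and the open triangle is the bound of 60.8-fold for Ugt1a2. The sum lay at -3.90 after co-culture and at 0.29 after restimulation.

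The split of Ugt1a counts between the rows differed between groups. Ugt1a7c took 78.6% to 85.2% of the Ugt1a counts in ATRA co-culture libraries, against 11.9% to 13.5% in CTRL co-culture libraries. After restimulation it took 26.4% to 27.7% in ATRA and 46.2% to 58.7% in CTRL libraries. Ugt1a10 ran the other way, with 2.70% to 7.18% in ATRA and 36.0% to 40.5% in CTRL co-culture libraries, and 14.8% to 20.1% in ATRA and 8.19% to 16.8% in CTRL restimulated libraries. The ranges of Ugt1a7c did not overlap between ATRA and CTRL in either state, while those of Ugt1a10 overlapped after restimulation. The annotated last exon of Ugt1a7c is longer than that of the other rows (a shared part of 2316 bases, against 1311 to 1318), and the part of this difference in the split was not tested. Per length, in restimulated ATRA cells, Ugt1a7c (11.1 ± 0.678 TPM), Ugt1a6a (10.4 ± 0.834 TPM) and Ugt1a10 (10.2 ± 1.11 TPM) lay within each other's spread, while in CTRL cells Ugt1a7c (17.8 ± 2.98 TPM) was above Ugt1a6a (8.73 ± 0.554 TPM) and Ugt1a10 (6.17 ± 1.86 TPM).

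**Figure D3:**
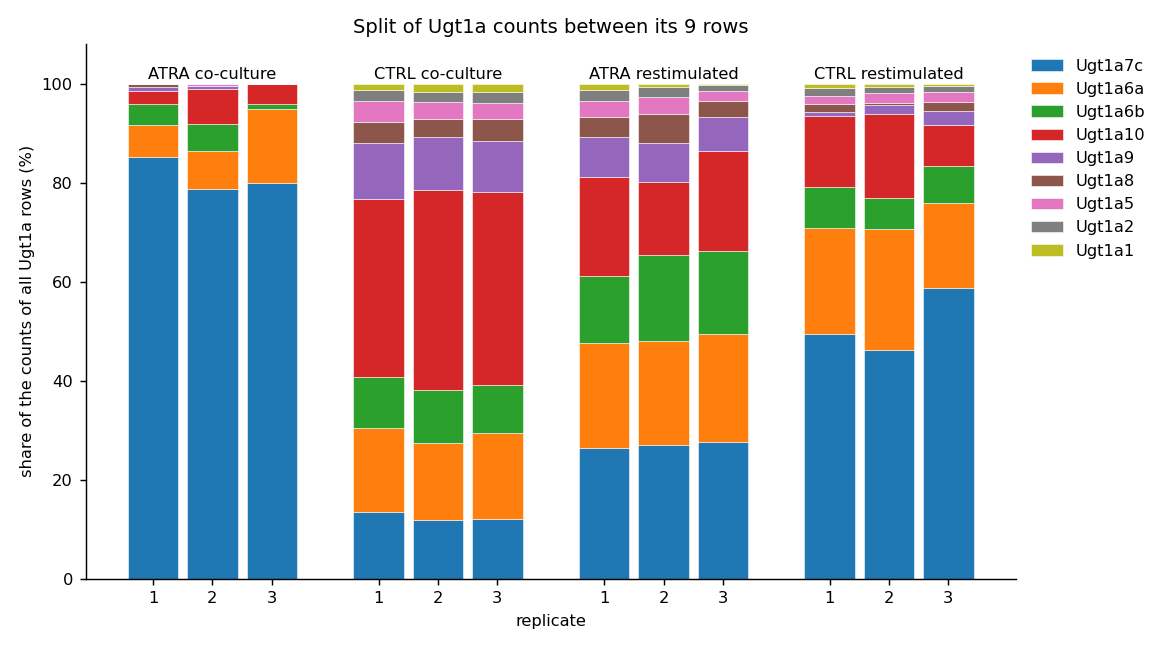
Share of the Ugt1a counts (vertical axis, in percent) that each of the 9 rows took in each library, ordered by group and replicate. Ugt1a7c filled 78.6% to 85.2% of the bar in ATRA co-culture libraries and 11.9% to 13.5% in CTRL co-culture libraries.

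Read together over the 8 genes, 5 were called after restimulation, 4 higher and 1 lower in ATRA cells. This share is close to the 62.6% of all tested genes that were called. Their groups did not overlap for 7 of 8 genes after restimulation, 5 above and 2 below, where 68.8% of all tested genes did not overlap. After co-culture 1 lay above, 6 lay below and 1 overlapped, beside 57.0% of all tested genes fully apart. Nothing is read from this, because that comparison led to the choice of Ugt1a5 and Ugt1a9. The median log2 fold change of the 8 was 0.62 after restimulation, against 0.02 over all tested genes. After co-culture it was -0.94, against 0.01, and nothing is read from that median for the same reason. The Ugt1a rows among the 8 share exons and are not independent, so these counts and medians do not rest on 8 separate genes.

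Summed markers of other cell types also differed between ATRA and CTRL libraries, in both directions after co-culture. The summed markers of GL261-like glioma, 18 genes of which 13 were in the co-culture table, stood at 51.7 to 64.9 CPM in ATRA and at 127 to 161 CPM in CTRL co-culture libraries, and at 109 to 113 CPM in ATRA and 90.2 to 99.3 CPM in CTRL restimulated libraries. They were thus ordered like the Ugt1a sum in both states. Most of that sum was Axl, a receptor tyrosine kinase also made by immune cells, at 46.5 ± 14.2 CPM in ATRA and 106 ± 13.5 CPM in CTRL co-culture cells. Of the defining glial and stromal genes, Gfap, Sox2, Pdgfra, Col3a1 and Col4a1 were not among the co-culture rows, and Gfap and Col1a2 had 0 counts in all 6 restimulated libraries. Other members went both ways after co-culture: Fn1 averaged 3.63 ± 2.54 CPM in ATRA and 0.124 ± 0.114 CPM in CTRL cells, Col1a2 had 15, 9 and 41 counts in ATRA and 0, 1 and 0 counts in CTRL libraries, and Igfbp7 averaged 0.504 ± 0.184 CPM in ATRA and 29.7 ± 7.67 CPM in CTRL cells. The 7 epithelial and hepatocyte markers, of tissues where Ugt1a is most active, went the other way after co-culture, with 35.3 to 86.7 CPM in ATRA and 2.97 to 4.49 CPM in CTRL libraries. Alb, Apoa1 and Ttr were not among the co-culture rows, and Cdh1 made up most of that sum, at 40.0 ± 24.7 CPM in ATRA cells. After restimulation the epithelial markers stood at 7.61 to 10.2 CPM in ATRA and 4.88 to 26.7 CPM in CTRL libraries. The summed NK cell markers stood at 9.80 to 11.6 CPM in ATRA and 33.0 to 42.7 CPM in CTRL co-culture libraries, and at 20.9 to 25.9 CPM in ATRA and 13.2 to 27.6 CPM in CTRL restimulated libraries. Most of the co-culture NK sum was Eomes, at 9.28 ± 0.446 CPM in ATRA and 27.1 ± 4.42 CPM in CTRL cells. Of 3 NK markers tested there, 0 were called higher and 2 lower, and Klrb1c had a log2 fold change of 1.08 (adjusted p = 0.106). The B cell markers overlapped after co-culture, at 4.87 to 10.4 CPM in ATRA and 7.19 to 16.6 CPM in CTRL libraries, and stood at 13.7 to 14.1 CPM in ATRA and 4.15 to 5.27 CPM in CTRL restimulated libraries. Dendritic cell markers stood at 107 to 210.0 CPM in ATRA and 61.5 to 68.5 CPM in CTRL co-culture libraries, and overlapped after restimulation at 96.2 to 98.3 CPM in ATRA and 62.8 to 101.2 CPM in CTRL libraries. The co-culture rise was in H2-Ab1, at 133 ± 56.5 CPM in ATRA and 26.9 ± 3.17 CPM in CTRL cells. Of 4 dendritic markers tested there, 1 was called higher and 2 lower, Zbtb46 (log2 fold change -2.70) and Cd74 (-1.30). Summed monocyte and macrophage markers were higher in ATRA libraries in both states, at 19.9 to 24.2 CPM in ATRA and 12.3 to 13.4 CPM in CTRL co-culture libraries, and 23.3 to 24.2 CPM in ATRA and 11.6 to 16.99 CPM in CTRL restimulated libraries. Most of the co-culture sum was Cd68, at 20.4 ± 2.79 CPM in ATRA and 11.4 ± 0.548 CPM in CTRL cells. Of 3 of these markers tested there, 2 were called higher and 1 lower. CD4 T cell and type 17 markers stood at 74.7 to 77.8 CPM in ATRA and 44.2 to 50.7 CPM in CTRL co-culture libraries, and overlapped after restimulation at 25.7 to 28.4 CPM in ATRA and 20.3 to 26.8 CPM in CTRL libraries. Most of the co-culture sum was Zbtb7b, at 73.9 ± 1.64 CPM in ATRA and 41.3 ± 2.34 CPM in CTRL cells. Of 7 of these markers tested there, 1 was called higher and 4 lower. The part of these markers in the results was not tested.

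**Figure D4:**
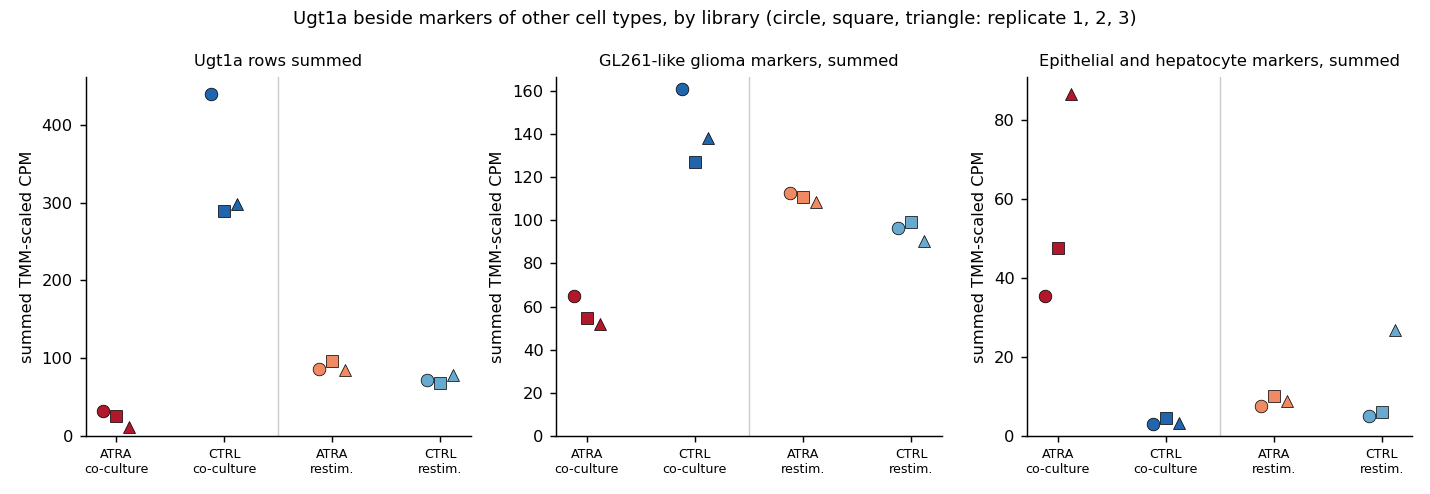
Summed TMM-scaled CPM (vertical axes, from 0) of the Ugt1a rows, of GL261-like glioma markers and of epithelial and hepatocyte markers, with 1 point per library. The glioma markers lay at 51.7 to 64.9 CPM in ATRA and 127 to 161 CPM in CTRL co-culture libraries, and the epithelial markers lay at 35.3 to 86.7 CPM in ATRA and 2.97 to 4.49 CPM in CTRL co-culture libraries.

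Other genes of the pathway were read from 6 lists of 99 genes in all, apart from the 8 and the Ugt1a rows. Of these, 33 of 72 tested were called after co-culture, 21 of them above and 12 below CTRL, and 58 of 74 after restimulation, 36 higher and 22 lower. These are 45.8% and 78.4%, beside 33.6% and 62.6% of all tested genes. The co-culture count moved with single libraries: it was 10 without CTRL replicate 2 or CTRL replicate 3, 19 without ATRA replicate 2, and 56 without CTRL replicate 1 and ATRA replicate 3 together.

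Of 15 tested genes of the complex and its coactivators, 5 were higher and 2 lower after co-culture and 10 were higher and 3 lower after restimulation. In all, 33.6% and 62.6% of tested genes were called in these states. The list had median log2 fold changes of 0.27 and 0.41, against 0.01 and 0.02 over all genes. Arnt, the obligate partner, stood at 113 ± 27.2 CPM in ATRA and 78.8 ± 5.82 CPM in CTRL co-culture cells (adjusted p = 0.0605), and after restimulation it rose by 0.34 to 124 ± 5.40 CPM in ATRA cells, against 98.0 ± 9.99 CPM in CTRL cells (adjusted p = 0.00387). Per length, in restimulated ATRA cells, Arnt (59.3 ± 4.49 TPM) was far above Ahr (3.41 ± 1.50 TPM). Hif1a, which shares ARNT as partner under low oxygen, rose in both states, by 0.75 (adjusted p = 0.0113) and 0.57 (adjusted p = 2.88e-06). Epas1, its relative, rose by 2.20 after restimulation (adjusted p = 4.09e-10). After co-culture Epas1 had 9.4, 59.4 and 240 CPM in ATRA and 18.2, 22.3 and 23.3 CPM in CTRL cells (log2 fold change 2.27, adjusted p = 0.113). Ptges3, which encodes p23, fell in both states, with log2 fold changes of -0.35 (adjusted p = 0.0197) and -0.59 (adjusted p = 4.8e-05). Cdc37 had a change of -0.38 after restimulation (adjusted p = 0.000514).

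Among other reported targets of the receptor, no gene was called lower in ATRA cells. Of 8 tested after co-culture 4 were higher, and of 10 tested after restimulation 5 were higher, with median log2 fold changes of 1.06 and 0.66. Over all tested genes 33.6% and 62.6% were called, and 18.1% and 31.8% were called higher. With so few targets tested, nothing is read from these shares. Cyp1a1, the classical target, was not among the co-culture rows and had 0 counts in all 6 restimulated libraries, which allows up to 3 counts in each. Cyp1b1 had 6, 0 and 5 counts in restimulated ATRA libraries and 0 in the CTRL libraries. Il10, an inhibitory cytokine, stood at 77.9 ± 2.79 CPM in restimulated ATRA and 0.285 ± 0.150 CPM in CTRL cells and rose by 8.06 (adjusted p = 5.94e-11). After co-culture Il10 had 1.36, 9.25 and 41.7 CPM in ATRA and 0.234, 2.06 and 2.68 CPM in CTRL cells (log2 fold change 3.38, adjusted p = 0.0799). Il22, the cytokine most closely tied to the receptor in T cells, had 1.85, 2.20 and 1.00 CPM in restimulated ATRA cells and none in CTRL cells, at least 9.84-fold higher (adjusted p = 8.58e-05). After co-culture Il22 was too low to be tested, with 0 counts in each ATRA library, against 3, 16 and 1 counts in the CTRL libraries. Serpinb2, a protease inhibitor, was at least 31.1-fold higher in restimulated ATRA than in restimulated CTRL cells (adjusted p = 7.66e-07). After co-culture its log2 fold change was 0.30 (adjusted p = 0.843). Entpd1, which encodes the ectonucleotidase CD39, rose by 1.34 after co-culture (adjusted p = 0.00102) and stood at 31.1 ± 1.77 CPM in restimulated ATRA and 27.8 ± 11.9 CPM in restimulated CTRL cells (adjusted p = 0.644). Gpr15, a homing receptor, was below 1 CPM in all groups.

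Tryptophan and kynurenine handling was read from the transcripts of 10 tested genes, and the supply of ligand itself was not measured. After co-culture 1 was higher and 3 were lower in ATRA cells, and after restimulation 5 were higher and 3 lower. The shares called over all tested genes were 33.6% and 62.6%. Slc7a5 and Slc3a2, the 2 chains of a transporter for tryptophan and kynurenine, rose after restimulation by 1.17 (adjusted p = 1.72e-08) and 2.25 (adjusted p = 7.99e-11). Il4i1, an amino acid oxidase whose products activate the receptor, fell by 1.82 after co-culture (adjusted p = 0.0339) and stood at 6.25 ± 2.09 CPM in restimulated ATRA and 0.956 ± 0.248 CPM in restimulated CTRL cells. Kyat3, a kynurenine aminotransferase, fell in both states, with log2 fold changes of -1.23 (adjusted p = 0.0325) and -1.91 (adjusted p = 3.89e-06).

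The NRF2 list, 21 tested genes of the antioxidant response that also controls Nqo1, moved in both directions. After co-culture 5 were higher and 5 lower, where 33.6% of all tested genes were called. After restimulation 8 were higher and 10 lower, where 31.8% of all tested genes were called higher and 30.8% lower. Nfe2l2, which encodes NRF2, rose by 0.91 after co-culture (adjusted p = 0.00357) and stood at 22.7 ± 1.97 CPM in ATRA and 24.6 ± 5.22 CPM in CTRL cells after restimulation (adjusted p = 0.527). Nqo2, the relative of Nqo1, fell in both states, with log2 fold changes of -1.02 (adjusted p = 0.0152) and -0.91 (adjusted p = 1.47e-05). Hmox1, the heme oxygenase, rose by 1.47 after restimulation (adjusted p = 4.15e-07), while Gclm, a subunit of the glutathione-producing ligase, fell by 1.78 (adjusted p = 1.77e-07). After co-culture their log2 fold changes were 1.65 (adjusted p = 0.0573) for Hmox1 and 0.08 (adjusted p = 0.82) for Gclm.

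Outside Ugt1a, 5 glucuronidation genes were tested. After co-culture 1 was higher and 2 were lower, and after restimulation 2 were higher and 3 lower. The shares called over all tested genes were 33.6% and 62.6%. Ugdh, which makes the UDP-glucuronic acid that Ugt1a enzymes use, rose by 0.51 after co-culture (adjusted p = 0.0174) and fell by 0.52 after restimulation (adjusted p = 0.000255), the opposite order of signs to the Ugt1a sum. These effects on Ugdh differed between the states (adjusted p = 0.000155), as did those on 49.2% of 12364 genes tested for a difference. Slc35d1, which carries UDP-glucuronic acid into the endoplasmic reticulum, fell by 0.50 after co-culture (adjusted p = 0.011) and rose by 0.65 after restimulation (adjusted p = 0.000717), the same order of signs as that sum. Gusb, the enzyme that removes glucuronic acid, fell in both states, with log2 fold changes of -1.37 (adjusted p = 0.0363) and -1.17 (adjusted p = 4.05e-08).

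Of 15 tested relatives of Tiparp in the PARP family, 6 were higher and none lower after co-culture, and 7 were higher and 3 lower after restimulation, with median log2 fold changes of 0.34 and 0.23. The shares called lie near the 33.6% and 62.6% over all tested genes. Parp12, another mono-ADP-ribosyltransferase, rose by 1.77 after restimulation (adjusted p = 1.46e-05), and Parp1, the DNA damage sensor, fell by 1.37 on the log2 scale (adjusted p = 1.28e-07). Parp16, a PARP of the endoplasmic reticulum, rose by 1.42 after co-culture (adjusted p = 0.00358) and fell by 1.85 after restimulation (adjusted p = 1.67e-06).

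**Figure D5:**
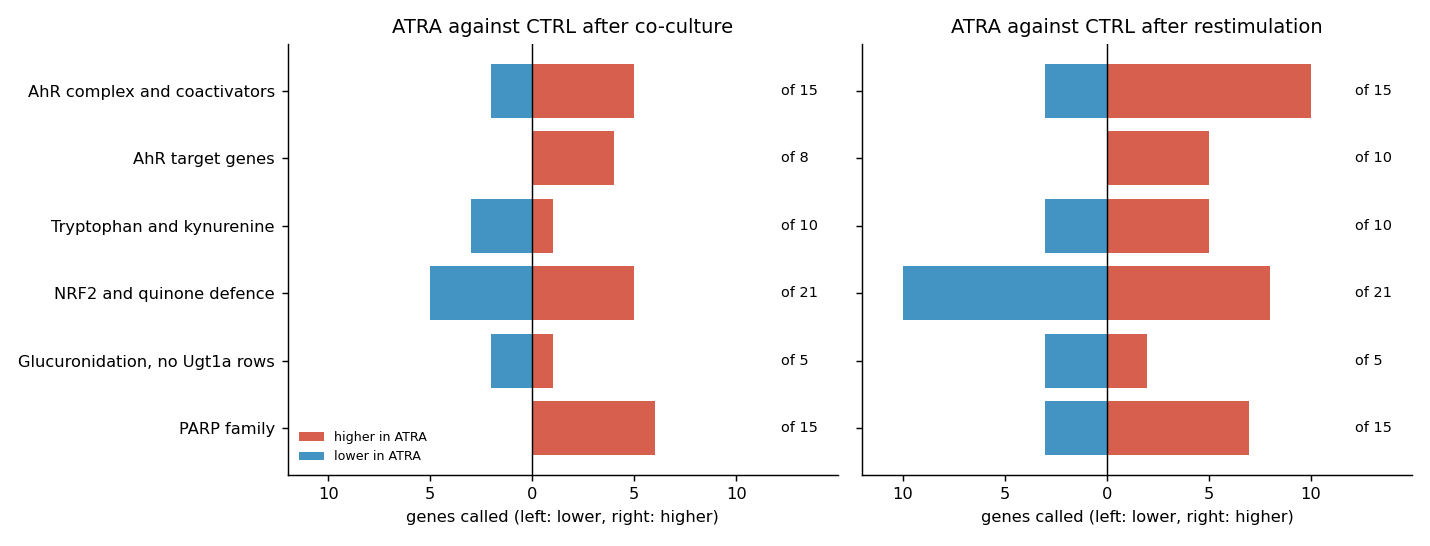
Number of genes called higher (right) and lower (left) in ATRA cells in each pathway list after co-culture and after restimulation, with the number tested beside each bar. The receptor complex had 5 higher and 2 lower of 15 after co-culture and 10 higher and 3 lower after restimulation. The shares called over all tested genes were 33.6% and 62.6%.

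The genes whose levels ran most like these over the 12 libraries were sought among 9308 genes by the Pearson correlation of log2(CPM + 1). The points share libraries, depth and groups, so the values are a description with no test. Tiparp was most like Rlf (r = 0.988), Foxo1 (0.984) and Dnajc5 (0.981). Foxo1, a transcription factor of naive and memory T cells, averaged 165 ± 70.4 CPM in ATRA and 44.3 ± 6.78 CPM in CTRL co-culture cells, and 121 ± 6.89 CPM in ATRA and 44.5 ± 7.88 CPM in CTRL restimulated cells. Ahrr was most like Edem2 (0.967), Casp8 (0.958) and Mgat5 (0.957). The Ugt1a sum was most like Serpinb9b (0.975), Klrc2 (0.965) and Plekhg2 (0.964), and Serpinb9b, a serpin, averaged 20.3 ± 13.7 CPM in ATRA and 360 ± 197 CPM in CTRL co-culture cells, and 112 ± 3.26 CPM in ATRA and 61.4 ± 12.6 CPM in CTRL restimulated cells. Nqo1 was most like Tpp2 (0.927), Zfp35 (0.919) and Arfgef2 (0.917). Ahr had looser neighbours, with Bbs10 (0.880) first and Nt5dc1 (0.861) the third.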

How the data were processed

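RNA from sorted cells was sequenced in 12 libraries, 3 per group, from a stranded total RNA kit per the labels' protocols. The authors deposited 2 tables of counts per gene symbol, 1 per state, and 1 file of TPM, abundance per transcript length, covering the restimulated libraries. Tools named in the submitters' processing notes are STAR 2.7.11b, Salmon 1.10.3, cutadapt 5.0 and DESeq2 1.42.1, with the genome build mm39. The sources used here do not say what each did, nor the strand setting or gene models. Symbols differed between the states, as with Wars1 after co-culture and Wars after restimulation. Whether the models of Ugt1a rows differed too is not known. Trac, tested after restimulation, was not among the co-culture rows, so absence from those rows is no measure of a low level. The smallest row sum of the deposited co-culture count table was 10. In the restimulation table, 16386 of 35588 rows were 0 throughout and 32 symbols were repeated, of which the row with the largest total was kept. All rows had a symbol. No column was left unused (0). TPM column headings show the treatment but no library, so they were used as unnumbered replicates of their group.

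Counts were fitted per state with edgeR 4.0.16 (R 4.3.3), with TMM scaling, filterByExpr by group, robust quasi-likelihood tests and Benjamini-Hochberg adjustment over all genes tested, called under 0.05. The difference between states was an interaction over 12 libraries and 12364 genes in both tables. SE is the coefficient over the root of its F. The floor was 3 counts per library, 0.110 to 0.183 CPM, and covers counting error only, as do count intervals. The test was checked on simulated counts. DESeq2 1.42.0, limma 3.58.1 on log2(TPM + 1) and log2(TPM + 0.1) for genes with a mean of at least 1 TPM, other scalings and filters (at least 10 counts), a replicate block, and fits without single libraries were alternatives.

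Samples were grouped by title. Whether replicates are separate mice or cultures is not stated in the labels, and the p-values reflect a spread between libraries that may be technical. Same-numbered ATRA and CTRL libraries share a labelled batch, which pairs them. Their deviations from the group means correlated at 0.0892, -0.0401 and 0.0568 after co-culture and at -0.0301, -0.12 and 0.076 after restimulation. No libraries of a group agreed within sampling noise (smallest chi-square per degree of freedom 3.764).

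The 8 genes, the lists and the tests were chosen with earlier results of these data known. What led to the choice of genes other than Ugt1a5 and Ugt1a9 is not recorded. Named genes were the 8, the other Ugt1a rows and their sum, up to 3 genes called with the smallest p per direction, list and comparison, genes fixed by name (Arnt, Cyp1a1, Cyp1b1, Nfe2l2, Hif1a, Il22, Gpr15 and Ugdh) and the 3 genes most like each level pattern with a mean of at least 5 CPM. Some genes named by this rule are not reported here. Sequences came from GENCODE M21 and RefSeq on GRCm38, matched by symbol.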

Additional observations from a re-analysis of the deposited data

Results flagged for a closer look

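For 6 Ugt1a rows and the sum over all 9, every ATRA library lay below every CTRL library after co-culture and above it after restimulation. Among all tested genes, ATRA and CTRL libraries were fully apart for 57.0% after co-culture and 68.8% after restimulation. The rows share exons and are not independent. The log2 fold changes after co-culture and after restimulation were -8.07 and 0.93 for Ugt1a5, -8.03 and 2.26 for Ugt1a9, and -4.89 and 0.32 for Ugt1a6a. They were -6.96 and 0.78 for Ugt1a10, -5.19 and 1.40 for Ugt1a6b, and -7.90 and 2.03 for Ugt1a8, and -3.90 and 0.29 for the sum. The value of Ugt1a5 after co-culture rests on 3 counts in ATRA cells and depends on the fit. No test of these differences between states is given, because the co-culture values led to the choice of Ugt1a5 and Ugt1a9.

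For genes of the pathway lists, the difference of the ATRA effects, restimulation minus co-culture on the log2 scale, was tested as an interaction in edgeR and passed an adjusted p of 0.05. The values are those of named genes and do not cover every gene that passed. In this test the state cannot be told apart from the labelled batch set. Among genes of the receptor complex it was 2.37 for Arnt2, -0.59 for Cdc37 and 0.83 for Ncoa1. Among receptor targets it was 9.51 for Serpinb2, 13.67 for Il22, 4.67 for Il10, -1.58 for Cdkn1b, -1.18 for Entpd1 and 2.04 for Slc7a5. The fitted values of Serpinb2 and Il22 depend on groups at 0 counts and are no bound. Among genes of tryptophan handling it was -3.84 for Kmo, -3.19 for Haao, 4.51 for Il4i1, 2.27 for Slc3a2 and 0.76 for Slc36a4. Among NRF2 genes it was -1.03 for Nfe2l2, -1.22 for Keap1, -1.86 for Gclm, 0.90 for Txnrd1, 4.64 for Srxn1, 7.74 for Slc7a11, -1.04 for Tkt, -2.07 for Osgin1 and 0.70 for Abcc1, and outside the rule for named genes -1.51 for Me1 and -0.51 for Fth1. Among glucuronidation genes outside Ugt1a it was -1.03 for Ugdh, 1.15 for Slc35d1 and 0.62 for Slc35d2. Among PARP genes it was -1.45 for Parp1, -0.67 for Parp2, -0.97 for Parp6, -0.98 for Parp10 and -3.28 for Parp16, and outside that rule -0.73 for Parp9.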

How the results depend on the processing

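No listed result changed sign while called. After co-culture 4071 genes were called, 1613 to 5617 with 1 library left out (1613 without CTRL replicate 3, 1772 without CTRL replicate 2, 2226 without ATRA replicate 2) and 7980 without CTRL replicate 1 and ATRA replicate 3 together, and 33 genes of the pathway lists were called, 10 to 38 with 1 library left out and 56 without those 2. The cause was not tested. With the labelled batch as a replicate block, 2892 genes were called after co-culture, 7751 after restimulation and 5403 in the difference between states, and the block ended the restimulation call of Ugt1a5 (0.88, adjusted p = 0.0934) and of no other gene of the 8 nor of their Ugt1a sum (0.29, adjusted p = 0.0183). The Ugt1a sum after restimulation ranged from 0.230586 to 0.336965 with 1 library left out, and its call ended without ATRA replicate 2 (0.23, adjusted p = 0.0743). Calls after restimulation numbered 6667 to 8266 and in the difference 5361 to 7462 over all alternatives. Ahrr, Tiparp, Ugt1a9 and Ugt1a7c kept their restimulation calls in every alternative run. Ahr, not called, was below 0 after restimulation in 3 of 14. Depth limits Ugt1a1, Ugt1a2, Ugt1a5, Ugt1a8 and Ugt1a9 in ATRA co-culture cells, where each had 10 counts or fewer in all.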
